A study of Drosophila melanogaster with 2 samples.

Results

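The 80 genes described here are the nuclear protein-coding genes of Drosophila melanogaster whose symbols begin with ND-, UQCR, COX or ATPsyn, of 13968 protein-coding genes on the chromosome arms. They were chosen by symbol alone and encode subunits of the mitochondrial respiratory chain and of ATP synthase: 40 belong to complex I (ND-), 9 to complex III (UQCR), 16 to complex IV (COX) and 15 to ATP synthase (ATPsyn). Of the 80, 21 carry a symbol that marks them as a like-named copy of another subunit gene (COX4L, ND-51L1) and are called paralogues, and the other 59 are called main genes. Binding of the transcription factor E2f2 was mapped by chromatin immunoprecipitation and sequencing (ChIP-seq) in whole embryos of 0 to 24 h from a transgenic strain, E2F2-GFP, which makes E2f2 fused to eGFP. An antibody against GFP precipitated chromatin that had been sonicated to 200 to 800 bp. There were 2 biological replicates, both carrying the fusion protein; embryos without the tag and input chromatin were not analysed here. The embryos pool all tissues and a full day of development, so strong binding in a few cells and weak binding in many cannot be told apart. Read depth, and the promoter that drives the transgene, are not stated in the labels.

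The respiratory chain passes electrons from NADH through complex I, ubiquinone, complex III and cytochrome c to complex IV, which reduces oxygen, and complexes I, III and IV pump protons out of the mitochondrial matrix. ATP synthase lets the protons flow back and makes ATP. Some subunits of these 4 complexes are encoded in mitochondrial DNA, and nuclear genes supply the rest. Flies hold duplicated copies of many of these nuclear genes, and many such copies are known to be expressed mainly in the testis. E2f2 works with its partner Dp at promoters, mainly as a repressor, as a member of the dREAM complex.

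A gene was counted as bound when a peak summit, the base of highest enrichment within a peak, lay within 500 bp of any of its transcription start sites (TSSs). Among the 7312 entries of the conservative list made from both replicates, called the joint list, summits marked 49 of the 80 genes (61.2%, exact Clopper-Pearson 95% interval 49.7 to 71.9), beside 40.7% of all protein-coding genes. Paralogues and main genes stood far apart in that count. Only 1 of 21 paralogues was bound (4.76%, 0.120 to 23.8), and 48 of 59 main genes were bound (81.4%, 69.1 to 90.3). The background of 40.7% lay above the interval of the paralogues and below that of the main genes. The intervals cover counting error only, and copies of a gene are related by descent, so the genes are not independent draws. Each replicate also had a list of its own. In the replicate 1 list 1 of 21 paralogues and 36 of 59 main genes were bound, beside 33.5% of all genes. In the replicate 2 list the counts were 1 of 21 paralogues and 44 of 59 main genes, beside 42.1% of all genes. The gap between paralogues and main genes was therefore present in each replicate.

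**Figure D1:**
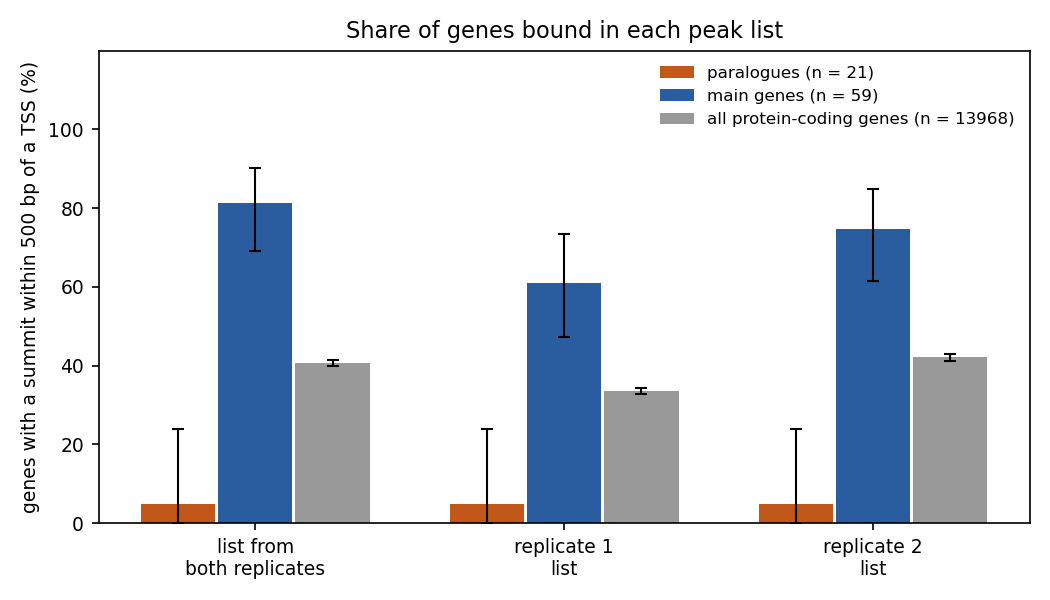
Share of paralogues, main genes and all protein-coding genes with a summit within 500 bp of a TSS (vertical axis, percent) in the joint list and in the list of each replicate; error bars are exact 95% intervals. In each list 1 of 21 paralogues was bound, while main genes ranged between 61.0% in the replicate 1 list and 81.4% in the joint list.

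The signal value, the authors' own measure of enrichment for each peak, ranked the genes within a list. Bound members had a median signal value of 202 in the joint list, with a range of 73.3 to 1704, beside a median of 252 over all bound genes. Of the 49 bound members 18 lay above that median and 31 at or below it. So the main genes were bound more often than genes at large, while bound members lay more often at or below that median than above it. The 1000 entries of highest signal value marked 8 of the 80 members, all of them main genes (8 of 59), beside 7.82% of all genes.

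**Figure D2:**
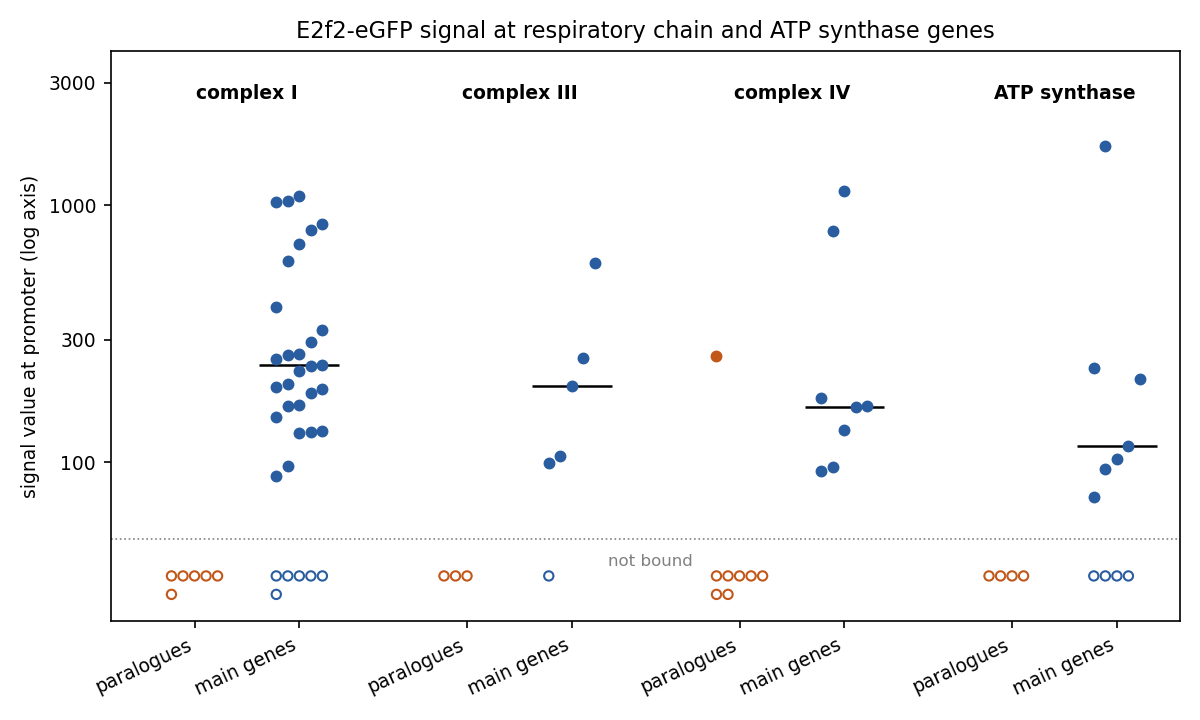
Signal value in the joint list (vertical log axis, no unit given by the authors) for paralogues and main genes of each complex; filled points are bound genes, black lines are medians of bound main genes, and open points under the dotted line are genes with no summit within 500 bp of a TSS. A single paralogue, COX7AL at 258, is bound, and the highest points are ATPsynB at 1704 in ATP synthase and COX4 at 1135 in complex IV.

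The DNA under the strongest summits is shown for the genes on arms 2L, 3L, 3R and X of highest signal value whose summit lies outside annotated untranslated sequence, with the promoter motifs searched in capitals: E2F sites (TTTGGCGC, TTTCCCGC, TTTGCCGC or TTTCGCGC), the DNA replication-related element or DRE (TATCGATA), the core of Ohler motif 1 (GGTCACAC), a core promoter motif of housekeeping genes, and the E-box (CACGTG), each on either strand. Stronger genes on other arms, such as ND-B12, are not printed. The sequences come from the RefSeq copy of the Release 6 (dm6) genome, run 5′ to 3′ on the strand of the gene, and reach up to 80 bases to each side of the summit, or up to 30 bases into an annotated UTR. They are ATPsynB (chr3L:9729885-9730028, plus strand, intergenic summit), COX4 (chr2L:19958557-19958717, plus strand, intergenic), ND-ACP (chr3L:1329723-1329883, plus strand, intergenic), ND-13B (chr3L:10694079-10694207, minus strand, intergenic), COX5B (chr2L:6557473-6557613, plus strand, intergenic), ND-23 (chr3R:15837319-15837448, minus strand, intergenic) and ND-ASHI (chrX:6679295-6679455, minus strand, in an intron of the neighbouring gene Fum1).
ATPsynB: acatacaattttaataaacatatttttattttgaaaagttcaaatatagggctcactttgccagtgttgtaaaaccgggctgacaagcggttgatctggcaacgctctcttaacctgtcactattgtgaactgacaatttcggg
COX4: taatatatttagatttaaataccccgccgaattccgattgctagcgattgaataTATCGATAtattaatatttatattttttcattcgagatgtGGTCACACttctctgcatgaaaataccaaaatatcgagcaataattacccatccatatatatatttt
ND-ACP: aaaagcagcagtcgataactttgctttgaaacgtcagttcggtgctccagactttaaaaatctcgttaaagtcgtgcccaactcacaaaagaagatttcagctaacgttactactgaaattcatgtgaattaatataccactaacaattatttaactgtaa
ND-13B: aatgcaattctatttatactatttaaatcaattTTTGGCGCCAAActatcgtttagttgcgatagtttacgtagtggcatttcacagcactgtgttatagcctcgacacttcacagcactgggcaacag
COX5B: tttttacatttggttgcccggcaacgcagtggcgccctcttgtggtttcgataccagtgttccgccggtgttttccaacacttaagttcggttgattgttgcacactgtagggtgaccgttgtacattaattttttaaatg
ND-23: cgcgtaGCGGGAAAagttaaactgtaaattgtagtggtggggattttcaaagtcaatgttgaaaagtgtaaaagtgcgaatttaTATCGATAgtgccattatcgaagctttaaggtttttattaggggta
ND-ASHI: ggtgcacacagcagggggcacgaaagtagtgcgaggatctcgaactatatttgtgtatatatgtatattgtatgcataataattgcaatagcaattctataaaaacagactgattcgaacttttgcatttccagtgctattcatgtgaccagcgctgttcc
The strongest of them, ATPsynB, holds none of the searched motifs in this stretch, nor do ND-ACP, COX5B and ND-ASHI. ND-13B holds a palindrome in which 2 E2F sites of opposite strand overlap, starting 47 and 43 bases upstream of the summit. ND-23 holds an E2F site starting 43 bases upstream of the summit and a DRE starting 35 bases downstream of it. COX4 holds a DRE starting 26 bases upstream of its summit and an Ohler 1 core starting 14 bases downstream of it.

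Complex I, the NADH dehydrogenase, had 0 of 6 paralogues (upper limit 45.9%) and 28 of 34 main genes bound (82.4%, 65.5 to 93.2). The 40.7% of all genes lay below the interval of these main genes and within that of the paralogues. The median signal value over the bound main genes was 238. ND-B12, an accessory subunit of the membrane arm, was the strongest, with 1088 in the joint list, 365 in the replicate 1 list and 728 in the replicate 2 list. ND-B22, another membrane-arm subunit, had 1037 in the joint list, 377 in replicate 1 and 649.7 in replicate 2. ND-19 had 1031, 379 and 654 in the same 3 lists. These accessory subunits surround the catalytic core, and all 3 stood among the 1000 strongest entries. ND-ACP, the mitochondrial acyl carrier protein, which also serves fatty acid synthesis, had 842 in the joint list, 257 in replicate 1 and 579 in replicate 2. ND-13B, a subunit of the matrix arm, had 798, 280.3 and 503. ND-23, an iron-sulfur protein of the core, had 709.9, 221 and 503. At the low end ND-20, another iron-sulfur core subunit, had 88.4 in the joint list and 63.9 in replicate 2, with no entry in the replicate 1 list. Core subunits, which carry the flavin and the iron-sulfur clusters, were bound at 5 of 7 main genes with a median of 263 and in both replicates' lists at 2 of 7, beside 32.2% of all genes in both lists. Accessory subunits were bound at 23 of 27 main genes with a median of 237 and in both replicates' lists at 20 of 27. Of the other core genes, ND-75 had 209.8 and was in the replicate 2 list only, ND-51 had 57.3 and was in the replicate 1 list only, ND-20 was in the replicate 2 list only, and ND-30 and ND-49 were in neither.

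Complex III, which passes electrons from ubiquinol to cytochrome c, had 0 of 3 paralogues (upper limit 70.8%) and 5 of 6 main genes bound (83.3%, 35.9 to 99.6). All 5 were in both replicates' lists. The 40.7% of all genes lay within both intervals. UQCR-Q, a small membrane subunit, had 594 in the joint list, 233 in replicate 1 and 388 in replicate 2. UQCR-14 had 255, 82.5 and 173 in the same lists. The core proteins, which resemble processing peptidases, were lower: UQCR-C2 had 198, 67.1 and 132. UQCR-C1 had 106, 34.0 and 77.1. UQCR-6.4, a small subunit, was lowest with 99.5, 42.3 and 77.0. The order was the same in each list except at the low end, where UQCR-C1 lay below UQCR-6.4 in replicate 1.

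Complex IV, cytochrome c oxidase, had 1 of 8 paralogues (12.5%, 0.316 to 52.7) and 8 of 8 main genes bound (lower limit 63.1%). The 40.7% of all genes lay below the interval of these main genes and within that of the paralogues. The median signal value over the main genes was 164. COX4, a subunit against the catalytic core, had 1135 in the joint list, 440.4 in replicate 1 and 685 in replicate 2. COX5B, a zinc-binding subunit, had 794, 336 and 457. The other main genes lay well below these, between 92.2 and 178. COX6B had 178, 56.4 and 111. COX7A had 164, 81.2 and 92.6, and COX7C had 133, 45.4 and 85.3. These small subunits sit around the mitochondrially encoded core, and 5 of the 8 main genes were bound in both replicates' lists. COX5A, with 165 in the joint list and 133 in replicate 2, and COX7B, with 95.7 and 67.0, were missing from the replicate 1 list. COX8 had 92.2 in the joint list and was in neither replicate's list.

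ATP synthase had 0 of 4 paralogues (upper limit 60.2%) and 7 of 11 main genes bound (63.6%, 30.8 to 89.1). The 40.7% of all genes lay within both intervals. The median signal value over the bound main genes was 115. ATPsynB, the b subunit of the peripheral stalk that holds the catalytic head in place, had the highest value of all 80 genes: 1704 in the joint list, 713 in replicate 1 and 993 in replicate 2. It stood at rank 158 of 7312 entries, and 97.4% of bound genes were lower. The next 2 genes encode membrane subunits and were several-fold lower. ATPsynE had 232, 79.3 and 136. ATPsynF had 211, 94.5 and 113. The remaining peaks were weak and none was in the replicate 1 list. ATPsynO, the stalk subunit that confers oligomycin sensitivity, had 115 in the joint list and 93.9 in replicate 2. ATPsynD, another stalk subunit, had 103 and 74.4. ATPsynbeta, the catalytic subunit, had 93.6 and 65.4, with its summit in a coding exon. ATPsynG had 73.3, the lowest value among bound members, and was in neither replicate's list. In both replicates' lists 3 of 11 main genes of ATP synthase were found, a share near the 32.2% of all genes.

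Main genes with no summit in the joint list numbered 11: 6 of complex I, 1 of complex III and 4 of ATP synthase. The ranked list of 80770 entries from both replicates, before any threshold, showed what lay at their promoters, where −log10 of the irreproducible discovery rate (IDR) of at least 2 marks the entries past the authors' threshold. ATPsynC, the proton-carrying ring subunit, had a ranked entry of signal value 178 and −log10 IDR 3.36, 29 bp from a TSS. That entry was past the threshold and yet absent from the joint list, one of 181 such entries of 7493. ATPsynC had ranked entries of 52.9 in replicate 1 and 119.9 in replicate 2, also past the threshold and absent from the lists. ATPsynCF6, a stalk subunit, had a ranked entry of 90.2 below the threshold (−log10 IDR 1.80). ATPsyngamma, the rotating shaft, had only 17.4. ATPsyndelta, in the central stalk, had 27.0 within the window, and a joint-list summit of 413 lay 521 bp from its TSS, nearer to its divergent neighbour Ypel. In complex I, ND-B14 had a ranked entry of 72.1 and was in the replicate 2 list with 47.7. The core subunits ND-30 and ND-49 had ranked entries of 63.9 and 35.6, and ND-PDSW had 56.1. ND-AGGG, ND-MLRQ and UQCR-11 had no ranked entry at all, and all 3 lie on chromosome arm 3L beyond 23 Mb, next to the centromere. That region held 3.13 ranked entries per Mb, against 708 per Mb on the rest of the arm, and 0 of its 36 protein-coding genes were bound. Without these 3 genes 48 of 56 main genes were bound (85.7%). Whether short reads can be placed there was not tested.

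Paralogues differed from main genes within pairs as well. There were 21 pairs, since some main genes have several copies, and 3 main genes have names of their own outside the symbol rule: levy (the main gene of COX6AL and COX6AL2), cype (of COX6CL) and sun (of ATPsynepsilonL). In 17 pairs only the main gene was bound, in 3 neither was (ATPsynCF6L, ND-49L and UQCR-11L with their main genes), and in 1 both were. COX4L had a ranked entry of 39.9, against 1135 at COX4. COX5BL, ND-24L and UQCR-14L had no ranked entry, against 794 at COX5B, 607 at ND-24 and 255 at UQCR-14. ND-51L1 had 30.8 and ND-51L2 none, against 202 at ND-51, which binds the flavin of complex I. The main gene had the higher ranked signal in 18 pairs, those with no entry at the paralogue included, and in UQCR-11L and its main gene neither promoter had an entry. The paralogues that went the other way were both copies of COX7A: COX7AL with 258 and COX7AL2 with 584, against 164 at COX7A. Of the 20 unbound paralogues 9 had an entry in the ranked list from both replicates, with a median of 30.8. The 11 unbound main genes included 8 with a ranked entry, with a median of 60.0. Over all 8287 unbound protein-coding genes 4184 had a ranked entry, with a median of 32.5.

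**Figure D3:**
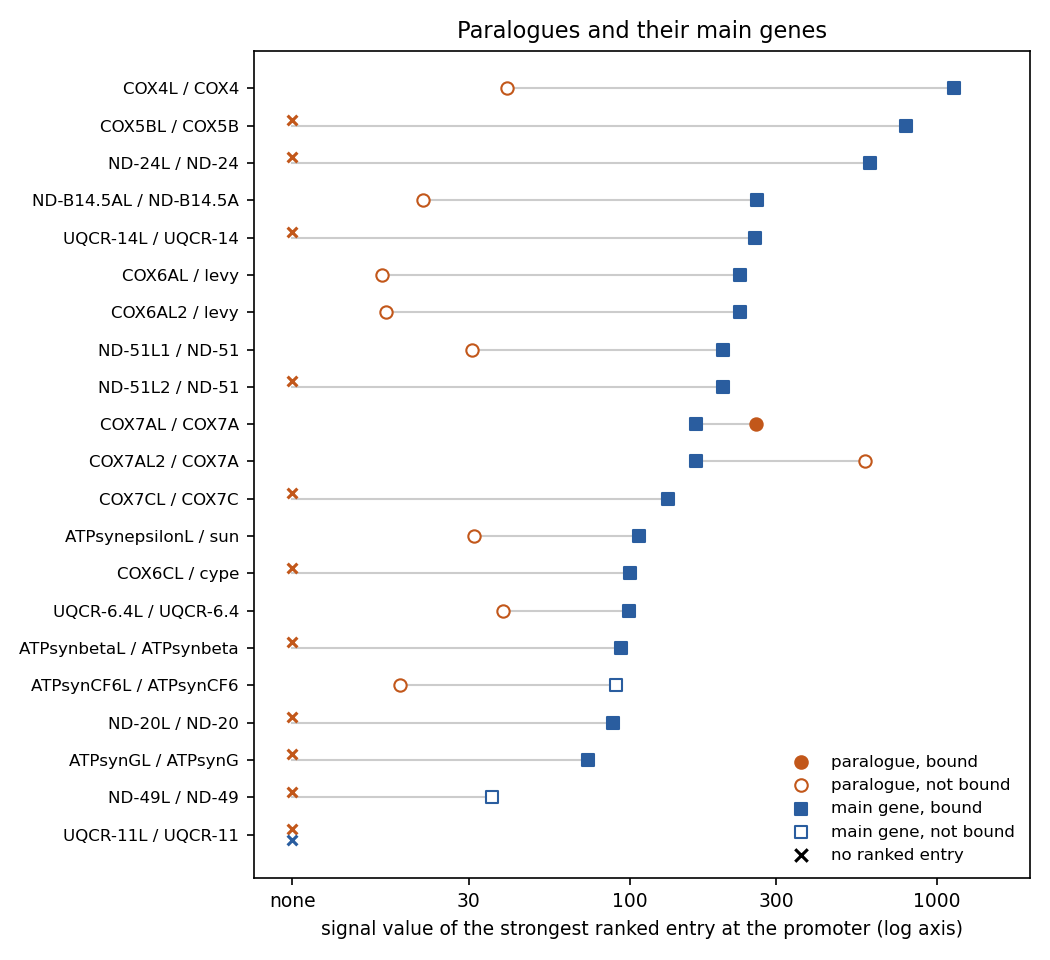
Strongest entry of the ranked list from both replicates within 500 bp of a TSS (horizontal log axis, signal value) for each paralogue (orange circles) and its main gene (blue squares), 1 pair per row. Filled symbols are bound in the joint list and crosses mark genes with no entry in that ranked list. Main genes lie to the right in 18 pairs, and the copies of COX7A, at 258 and 584 against 164, lie to the right of their main gene.

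Protein identity, counted over the columns of a global alignment, ranged between 11.6% and 85.6% with a median of 44.7%. UQCR-14L and UQCR-14 were the closest at 85.6%, and only UQCR-14 was bound. UQCR-11L and UQCR-11 came next at 77.9%, with neither bound. ND-20L and ND-20 shared 73.0% and ATPsynepsilonL and sun 68.8%, with only the main gene bound. COX7AL and COX7A, the pair with both genes bound, shared 25.2%. Among the 14 paralogues with at least 30% identity to a main gene that is itself a member, 0 were bound.

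The COX7AL promoter, the sole bound paralogue promoter, lies 2626 bp from that of COX7A on chromosome arm 3R. The COX7AL summit carries an Ohler 1 core on the opposite strand and the COX7A summit a DRE. COX7AL had 258 in the joint list, 117 in replicate 1 and 145 in replicate 2, so all 3 values lay above the 164, 81.2 and 92.6 of COX7A. Its summit lay 130 bp upstream of its TSS. When each summit was given to its nearest TSS alone, 0 paralogues were bound. COX7AL2 had a ranked entry of 584 whose summit lay 493 bp from its TSS, just inside the window, with a −log10 IDR of 4.71. That entry was past the threshold and absent from the joint list. Ranked entries at COX7AL2 were 10.1 in replicate 1 and 360.1 in replicate 2, and just outside the window, nearer to CG10874, lay stronger ones of 1892 in the ranked list from both replicates (512 bp away), 750.3 in replicate 1 (512 bp) and 1134 in replicate 2 (502 bp).

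The replicates were compared gene by gene. Both lists held 36 members (35 main genes and COX7AL), beside 32.2% of all protein-coding genes. By complex these were 22 genes of complex I, 5 of complex III, 6 of complex IV and 3 of ATP synthase. Over the 36 the median signal value was 88.5 in replicate 1 (26.8 to 713) and 152 in replicate 2 (77.0 to 993). The order of the genes was similar in both, with a Spearman rho of 0.915 across genes, which share the same 2 libraries. ATPsynB, COX4, ND-19, ND-B22 and ND-B12 were the 5 highest in each replicate, though in different orders. Of the other bound members, 8 were in the replicate 2 list only, ND-51 was in the replicate 1 list only, and ATPsynG, COX8, ND-B16.6 and ND-SGDH were in neither. These 4 had joint-list values of 73.3, 92.2, 96.9 and 129.8, in the lower part of the range of bound members. The replicate 2 list was the longer one, with 8250 entries against 5002.

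**Figure D4:**
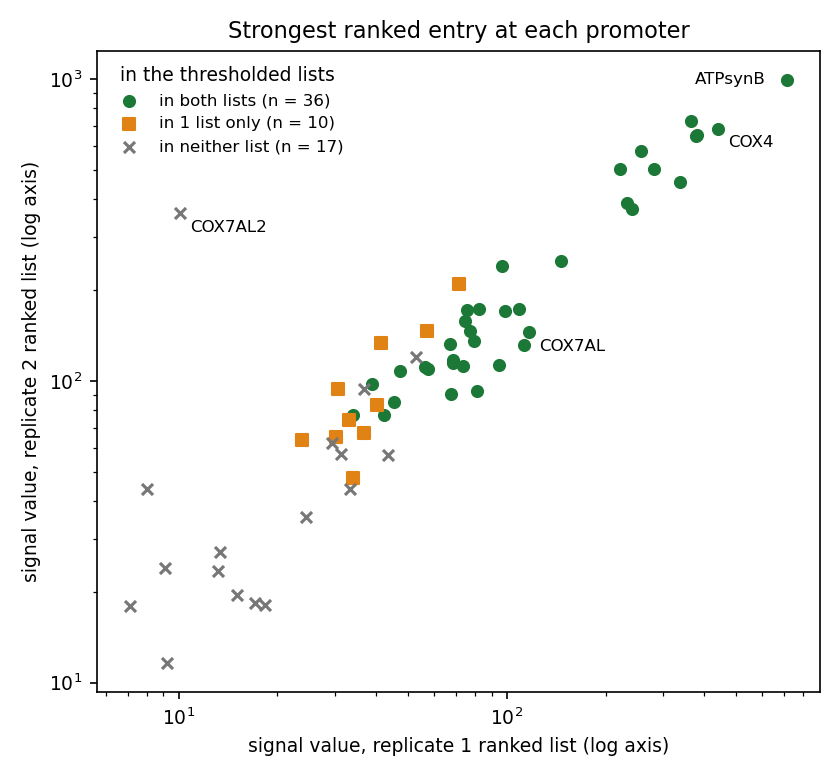
Strongest ranked entry at each promoter in replicate 1 (horizontal log axis, signal value) and replicate 2 (vertical log axis, signal value) for the 63 members with an entry in both; the symbol shows whether the thresholded lists of both replicates (36 genes), of 1 (10) or of neither (17) held the gene. ATPsynB and COX4 lie at the upper right, and COX7AL2, at 10.1 in replicate 1 and 360.1 in replicate 2, lies apart from the diagonal.

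The summits sat close to the start sites. Over the 49 bound members the median distance to the nearest TSS of the gene was 56.0 bp, beside 90.0 bp over all bound genes, and 69.4% lay within 100 bp, beside 54.1%. Upstream summits made up 81.6%, beside 86.3%. By annotation 27 summits were intergenic (55.1%, beside 64.5% over all bound genes) and 15 in a 5′ UTR (30.6%, beside 21.2%). The farthest was that of ND-39, 405 bp upstream, and the next were those of ND-23 (282 bp) and ATPsynE (276 bp). For 38 members (77.6%, beside 74.0% of all bound genes) the nearest TSS of any protein-coding gene was their own, and for 11 it was that of another gene. ND-19 was among the 11, with its summit 18 bp upstream of its TSS and CG30161 starting 21 bp away on the opposite strand. ND-23 was another, since its summit lay nearer to spn-E, a piRNA pathway helicase gene.

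**Figure D5:**
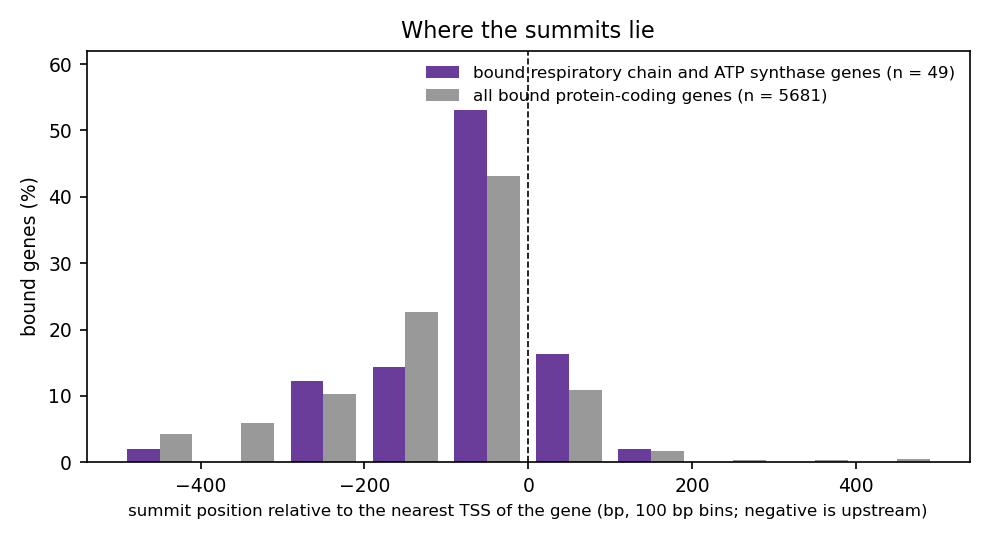
Share of bound genes (vertical axis, percent) by position of the summit relative to the nearest TSS of the gene (horizontal axis, bp in bins of 100 bp, negative is upstream), for the 49 bound members and all 5681 bound genes. The bin just upstream of the TSS holds 53.1% of members, beside 43.2% of all bound genes.

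Many of the main genes share their upstream region with a gene on the opposite strand. A divergent TSS within 1000 bp upstream was annotated for 3 of 21 paralogues (14.3%) and 39 of 59 main genes (66.1%), beside 36.2% of all protein-coding genes. With such a neighbour 33 of 39 main genes were bound (84.6%), beside 66.6% of all genes that have one. Without one, 0 of 18 paralogues and 15 of 20 main genes were bound (75.0% of the main genes), beside 26.0% of all genes that lack one. The share of bound main genes thus differed less between these settings than that of all genes. Among the 34 bound members with a divergent neighbour, that neighbour was bound too in 32. The same share over all bound genes was not counted. A single summit can lie within 500 bp of both starts, so the count does not set the members apart from other genes. Some examples, picked after the neighbours were seen, are as follows. ND-ASHI and Fum1, a fumarase gene, start 164 bp apart. ND-B16.6 and kdn, which encodes citrate synthase, start 228 bp apart. ND-42 and Cchl, a cytochrome c heme lyase gene, start 229 bp apart, and ATPsynD and mRpL55, a mitochondrial ribosomal protein gene, 95 bp apart. ND-24 starts 42 bp from corolla, a meiotic gene, and UQCR-C1 26 bp from CycC, a cyclin gene. Which gene of such a pair a summit belongs to was not tested.

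Motifs within 100 bp of the summit were counted for the 49 bound members. An E2F site was found at 4 of them (8.16%), beside 9.38% of the 4146 summits of all bound genes: ND-B12, ND-13B, ND-23 and ND-39, all of complex I. The signal values of these were 1088, 798, 709.9 and 196. A DRE was found at 11 (22.4%), beside 15.7%, and an Ohler 1 core at 9 (18.4%), beside 12.5%. No E-box was found (0 of 49), beside 2.89%, and no match to the NRG element, a motif of fly nuclear genes for mitochondrial proteins, beside 0.169%. In all, 22 of 49 summits had at least 1 of the motifs. The same share over all bound summits was not counted, so this total does not set the members apart from other genes. The DRE genes were spread over complexes I, III and IV and included ND-19, with the DRE 1 base from the summit, ND-15, COX7A and UQCR-14. No ATP synthase summit held any of the motifs within 100 bp. Within 250 bp the NRG element was found at 2 of 49 summits (4.08%), those of ATPsynF and ATPsynO, beside 0.482% of all bound summits. In promoter windows of 250 bp upstream to 50 bp downstream, E2F sites were found at 0 of 21 paralogues and 3 of 59 main genes (5.08%), beside 6.41% of all genes. The DRE was found at 0 of 21 paralogues and 9 of 59 main genes (15.3%), beside 9.36%, and the Ohler 1 core at 1 of 21 paralogues (4.76%) and 14 of 59 main genes (23.7%), beside 7.69%. A match describes the letters in the window and shows no binding site, and a missing match says only that these letters are not there.

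Other genes of the pathway have names outside the symbol rule. In a list of 16 of them, 1 of 4 paralogues and 11 of 12 main genes were bound in the joint list, beside 40.7% of all genes, and 1 of 4 paralogues and 7 of 12 main genes in both replicates' lists, beside 32.2%. Cyt-c-p, which encodes the somatic cytochrome c, had 1796 in the joint list, 685 in replicate 1 and 1096 in replicate 2, above all 80 members in the joint list and in replicate 2. The bound copy, Cyt-c-d, a cytochrome c of the male germline, had 561, 139.6 and 423, with its summit nearer to CG31808. In succinate dehydrogenase, the complex without mitochondrially encoded subunits, SdhA had 429, SdhB 207, SdhD 91.8 and SdhC 71.5 in the joint list. The copies SdhAL and SdhBL had no entry in the ranked list from both replicates. The Rieske iron-sulfur protein gene RFeSP had 422, the ATP synthase alpha gene blw 281, levy 228, ox 145 and sun 107, and cype was bound with 68.3 in the replicate 2 list. Cyt-c1, the remaining main gene, had only an entry of 61.0 in the ranked list from both replicates, and its copy Cyt-c1L had none there.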

How the data were processed

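The files analysed are peak lists of E2f2-eGFP binding in embryos: a ranked and a thresholded list for each of 2 biological replicates, and the lists made from both. Per the deposited file records, alignments and a control file gave the ranked lists, and the thresholded ones passed an IDR threshold, which the deposited −log10 values place at 2 (0.01). The signal value is the authors' own for each peak. Its scale, the aligner, the caller, their versions and the depth were not given in the sources used here. Summits were the deposited start plus the deposited summit offset, counted from 1, in dm6 per the labels. The joint list is the conservative thresholded list.

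Genes and TSSs came from Ensembl release 115 and sequence from the RefSeq copy of Release 6, and no peak lay past a chromosome end. Where several summits fell within 500 bp of a TSS, the one of highest signal value was taken. Divergent genes start within 1000 bp upstream on the opposite strand. Protein identity came from translated Ensembl coding sequences (global alignment, BLOSUM62, free end gaps). The assignment step was tested on simulated summits, 200 at each of 5 distances, and placed all as planted. Python 3.11.15, pandas 2.3.3, NumPy 2.4.6, SciPy 1.17.1 and Biopython 1.88 were used.

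Both replicates form 1 group, so no groups were compared and no test was run. Members, lists and the rule for named genes were chosen with earlier results of these data known. That rule took, in each complex, up to 6 bound main genes of highest signal value, the lowest, the unbound main genes, and paralogues with their main genes. Other genes named for a replicate state, neighbour or motif were chosen after their values were seen. Sequences were printed only for genes on arms 2L, 3L, 3R and X and with at most 30 bases of any annotated UTR, and no complex III gene met both conditions. Alternatives were other lists, windows, summits, TSSs, assignments, identity and motif forms.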

Additional observations from a re-analysis of the deposited data

How the results depend on the processing

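Counts of bound genes stayed within 1.5 times those of the joint list with the larger list, TSS windows of 250 and 1000 bp, peak midpoints, gene 5′ ends and merged regions. Single genes did change: the larger list gained ND-30, ND-B14 and ND-PDSW and lost ATPsynG and ND-SGDH. ATPsynG and ND-SGDH were in neither replicate's list either, so among the thresholded lists only the joint list held them. With the 1000 strongest entries 8 members were bound (5 of complex I, 0 of complex III, 2 of complex IV, 1 of ATP synthase; 0 paralogues, 8 main genes) beside 7.82% of all genes, with a median signal value of 1034. With the list of a single replicate, members bound ranged between 37 and 45, beside 33.5% (replicate 1) and 42.1% (replicate 2) of all genes. Complex I genes ranged between 23 and 26, complex IV genes between 6 and 8, and ATP synthase genes between 3 (without replicate 2) and 6. Main genes ranged between 36 and 44, and the median signal value between 82.5 and 133, while complex III stayed at 5 and paralogues at 1. For complex I, paralogues included, the share of all genes lay below the exact 95% interval in each replicate's list. For complexes III and IV and ATP synthase, paralogues included as well, that share lay within the interval. ATP synthase, with 3 and 6 of 15 genes bound, paralogues included, lay below the share of all genes in each list. Its main genes alone did so only in replicate 1, with 3 of 11 bound beside 33.5%. In replicate 2 they lay above that share, with 6 of 11 bound beside 42.1%. Complex IV, with 6 and 8 of 16, paralogues included, lay above the share of all genes in each list. With each summit given to its nearest TSS alone, 40 members and 0 paralogues were bound, beside 31.6% of all genes. With the ranked entries that are past the threshold but absent from the joint list returned to it, an alternative chosen after seeing the data, 51 members and 2 paralogues (COX7AL and COX7AL2) were bound, beside 41.4%. Of the 14 paralogues with at least 30% identity to another member, 0 were bound. With the last 7 letters of each E2F form, 7 of 49 summits held a match (14.3%), beside 18.1% of all bound summits. E2F sites were at 8.16% of members within 50 and 250 bp too, beside 5.74% and 15.4%. No paired analysis was possible because both replicates form 1 group. Read depth is not stated in the labels, and the part of depth in a missing peak was not tested.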

Other observations

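Of 5 genes for regulators of mitochondrial gene expression, all 5 were bound in the joint list, beside 40.7% of all genes, and 4 in the lists of both replicates, beside 32.2%. Ets97D, the fly counterpart of the alpha subunit of nuclear respiratory factor GABP, had a signal value of 2262 in the joint list, 869.9 in replicate 1 and 1397 in replicate 2, above each of the 80 members in every list. The coactivator gene srl, the fly PGC-1 homologue, had 472, and ewg, related to vertebrate nuclear respiratory factor, had 355. TFAM, which packages mitochondrial DNA, had 165, with no entry in the replicate 1 list, and mtTFB2, a mitochondrial transcription factor gene, had 129, with its summit nearer to CG11722.

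The members were spread over the chromosomes. No paralogue lies on the X (0 of 21), where 11 of 12 main genes were bound, beside 44.5% of all genes there. On chromosome 4 the main genes are ATPsynbeta, which was bound, and ND-49, which was not, beside 21.2% of the 80 genes there. On the other arms 11 of 12 main genes were bound on 2L (beside 37.6% of all genes there), 8 of 9 on 2R (beside 42.8%), 9 of 13 on 3L (beside 39.9%) and 8 of 11 on 3R (beside 40.3%).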
